A study of Homo sapiens with 2 samples.

Results

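The lysosomal genes described here are 38 genes that encode the enzymes, membrane proteins and proton pump of the lysosome together with TFEB and TFE3, transcription factors that act on such genes. They were chosen by name as known lysosomal genes, with earlier results of these data known, and all 38 were found among the 20037 protein-coding genes of the RefSeq table on chromosomes 1 to 22, X and Y. The series holds 2 chromatin immunoprecipitation libraries for histone H3 acetylated at lysine 27 (H3K27ac) made in F36P, a human line established from an erythroid leukaemia. For 1 of them the cells carried the MSCV-PIG-AM-ERG plasmid and bear the genotype label ERG overexpression. For the other they carried empty MSCV-PIG and bear the label WT. Puromycin selection of both cultures lasted 4 days at 1 µg/ml, so resistance from the vector is common to both. Below they are ERG cells and vector cells (drawn as ERG library and Vector library). The labels do not explain AM, and the vector is a retroviral one, so expression of ERG is not under the control of its own gene. The labels name no clone and no second culture.

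The lysosome is the acidic compartment in which cells degrade proteins, lipids, glycans and whole organelles. Its hydrolases are made in the endoplasmic reticulum, marked with mannose 6-phosphate and sorted through the Golgi, and a proton-pumping V-ATPase keeps the lumen acidic. TFEB, TFE3 and their relative MITF bind an E-box with a flanking T, known as the CLEAR element, in promoters of many lysosomal genes. Red cell precursors use lysosomes to clear mitochondria by autophagy as they mature. H3K27ac marks nucleosomes beside active promoters and at active enhancers, and ERG is an ETS-family transcription factor.

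The CLEAR-type element was more frequent in the promoters of these genes than in all promoters, and LAMP1 held more copies of it than any other promoter searched. The element is known from promoters of lysosomal genes and the members were chosen as such genes, so a higher share is no independent result. RefSeq promoters (GRCh38.p14, which shares its coordinates with hg38) of 300 bases, from 250 before the annotated start to 50 after it, were found for 30 of the 38 members. CTSB, HEXA, NAGLU, ARSA, ASAH1, PSAP, LAMP2 and ATP6V1H were not matched. The E-box with flanking T, searched as TCACGTG on both strands with overlapping matches around the same core counted once, was present in 8 of the 30 promoters (26.7%), against 4.78% of all 15842 promoters of the same length. The 8 members were LAMP1, CTSD, CLCN7, CTSA, ATP6V0D1, GAA, MCOLN1 and NEU1, and they held 17 matches in all. LAMP1 had 6 matches, and it was the single promoter of the 15842 with 5 or more. Of the 17 matches, 11 had their centre within 60 bp of the annotated start.

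The 250 bases before the start are shown for 6 of these members, those with the most H3K27ac fragments in ERG cells first. Capitals mark the matches to TCACGTG or its reverse complement. LAMP1 (chr13:113296989-113297238, plus strand) encodes an abundant glycoprotein of the lysosomal membrane, and its stretch shows 5 of the 6 matches, since the last begins 2 bases before the start and runs past it. CTSD (chr11:1763928-1764177, minus strand) encodes an aspartic protease, and CLCN7 (chr16:1475029-1475278, minus strand) a chloride-proton exchanger of the lysosomal membrane. CTSA (chr20:45891085-45891334, plus strand) encodes a carboxypeptidase that also protects beta-galactosidase and neuraminidase. ATP6V0D1 (chr16:67481158-67481407, minus strand) encodes a subunit of the V-ATPase membrane sector. GAA (chr17:80101331-80101580, plus strand) encodes acid alpha-glucosidase, which degrades glycogen. It holds 2 matches and had no peak at its ends, which is also true of MCOLN1, not shown.
LAMP1: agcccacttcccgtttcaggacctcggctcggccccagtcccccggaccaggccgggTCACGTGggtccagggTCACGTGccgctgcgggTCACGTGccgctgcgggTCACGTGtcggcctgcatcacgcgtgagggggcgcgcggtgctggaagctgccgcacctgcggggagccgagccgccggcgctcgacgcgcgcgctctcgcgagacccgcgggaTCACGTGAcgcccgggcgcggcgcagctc
CTSD: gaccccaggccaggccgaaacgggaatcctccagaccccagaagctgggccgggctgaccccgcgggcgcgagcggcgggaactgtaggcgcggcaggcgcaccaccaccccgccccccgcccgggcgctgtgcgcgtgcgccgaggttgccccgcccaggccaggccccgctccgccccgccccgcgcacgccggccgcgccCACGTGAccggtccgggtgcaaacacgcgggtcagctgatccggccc
CLCN7: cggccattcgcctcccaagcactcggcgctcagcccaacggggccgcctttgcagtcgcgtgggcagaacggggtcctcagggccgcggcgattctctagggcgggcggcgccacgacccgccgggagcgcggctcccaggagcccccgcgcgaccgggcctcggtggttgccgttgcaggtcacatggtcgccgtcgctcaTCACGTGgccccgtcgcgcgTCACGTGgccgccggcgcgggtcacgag
CTSA: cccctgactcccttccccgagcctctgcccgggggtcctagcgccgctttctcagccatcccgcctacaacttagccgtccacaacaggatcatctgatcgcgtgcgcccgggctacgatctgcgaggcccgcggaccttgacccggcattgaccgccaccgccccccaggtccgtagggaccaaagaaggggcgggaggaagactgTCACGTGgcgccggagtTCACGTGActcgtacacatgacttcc
ATP6V0D1: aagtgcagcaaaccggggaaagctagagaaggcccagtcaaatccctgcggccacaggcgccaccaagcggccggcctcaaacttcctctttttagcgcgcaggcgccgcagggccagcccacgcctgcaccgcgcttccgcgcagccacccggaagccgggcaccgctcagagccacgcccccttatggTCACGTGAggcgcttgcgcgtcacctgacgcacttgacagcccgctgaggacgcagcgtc
GAA: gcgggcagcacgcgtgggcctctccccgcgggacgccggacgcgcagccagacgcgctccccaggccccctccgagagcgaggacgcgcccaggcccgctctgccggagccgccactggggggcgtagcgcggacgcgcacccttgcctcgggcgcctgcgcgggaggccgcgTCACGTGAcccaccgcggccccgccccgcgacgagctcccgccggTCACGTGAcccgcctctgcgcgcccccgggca
Each of the 6 promoters had a match centred within 60 bp of the start, and LAMP1 had a further row of 4 farther upstream.

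Other motifs were searched in the same promoters. The ETS motif CCGGAAG, of the family to which ERG belongs, was present in 3 of 30 promoters (10.0%; ACP2, CD63 and ATP6V0D1), against 14.2% of all promoters. Among promoters of genes with an H3K27ac end peak in both libraries, 23.8% of all genes and 2 of the 10 members held it. With a peak in ERG cells alone it was held by 22.9% and by 1 of 11 members, and with no peak by 5.49% and by 0 of 9. The GATA motif AGATAA was present in 2 of 30, CTSH and ARSB, against 7.57% of all promoters. The GC box GGGCGG was present in 27 of 30, against 58.5% of all promoters, and CCAAT in 6 of 30, against 36.4%. A set of 141 other genes of lysosomal hydrolysis, transport, sorting and signalling held the flanked E-box in 23 of 108 matched promoters (21.3%). By contrast it was found in 0 of 27 promoters of proteasome subunits and 3 of 62 of cytosolic ribosomal protein genes, whose promoters held the ETS motif in 33.3% and 33.9%. A match is a run of letters and not a measured binding site.

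**Figure D1:**
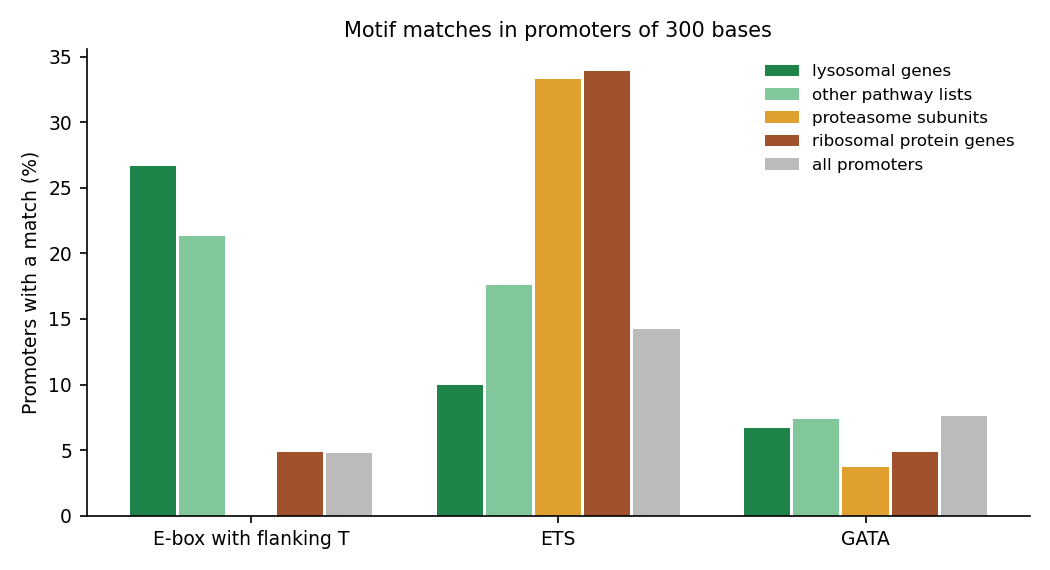
Share of promoters of 300 bases (vertical axis, %) that hold the E-box with flanking T, the ETS motif or the GATA motif, for the 30 lysosomal genes with a promoter, 108 other genes of the pathway, 27 proteasome and 62 ribosomal protein genes and all 15842 promoters. The flanked E-box is held by 26.7% of the lysosomal genes against 4.78% of all promoters, and the ETS motif by 10.0% against 14.2%.

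The measurements are peak lists, in which each peak has a summit, a fold over the local background and a p-value, all given by the authors' peak caller. The number of fragments at the summit and the local background were recovered from these 2 values and are used below as the level of a peak. The ERG list had 19671 peaks and the vector list 9161. The lowest background was 2.31 fragments in ERG cells and 1.6 in vector cells, a ratio of 1.44 that was taken as the relative depth. With 1 library per group there was no spread between replicates, no test between groups was made, and every difference below is one between these 2 libraries. Intervals are exact 95% intervals that cover counting error only. The peaks come from whole cultures, so fewer cells with a mark and less of it per cell cannot be told apart. Of 10 erythroid marker genes, 9 had a peak within 1 kb of a gene end in ERG cells and 8 in vector cells, SLC4A1 being the marker without a peak in either. Of 10 markers of macrophages and osteoclasts, which are rich in lysosomes, 0 had one in either library.

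In the full lists, most lysosomal genes carried H3K27ac at an end, and more of them did so in ERG cells. Within 1 kb of an end of the gene record, 29 of 38 (76.3%) had a peak in ERG cells, against 45.8% of all protein-coding genes, and 17 of 38 (44.7%) in vector cells, against 30.5%. A peak was present in both libraries at 17 genes, against 30.2% of all genes. It was present in ERG cells alone at 12 genes (31.6%, against 15.6% of all genes), in vector cells alone at 0 of 38 (0.354% of all genes), and in neither at 9 (23.7% against 53.8%). Of the 21 members without a vector peak, ERG cells had a peak at 12, or 57.1%, against 22.5% of all such genes. Of the 29 with an ERG peak, 17 (58.6%) had a vector peak, against 65.9% of all such genes. These counts moved with the length of the lists. With the ERG list limited to the 9161 best-scored peaks, 9 lysosomal genes had a peak in both (26.9% of all genes) and 17 in neither (63.3%). A peak was in ERG cells alone at 4 (6.15% of all genes) and in vector cells alone at 8 (3.66%). More members then had a vector peak than an ERG peak, the reverse of the full lists. The 8 were CTSB, CTSH, ARSB, ACP5, PSAP, NPC2, LAMP2 and CLCN7, all with a peak in both libraries in the full lists.

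Sets of widely expressed genes also had peaks in ERG cells that the vector list lacked, at shares near the 15.6% of all genes. Of 32 proteasome subunits, 26 had a peak in both libraries and 4 (12.5%) in ERG cells alone. For the 77 cytosolic ribosomal protein genes these numbers were 64 and 13 (16.9%), so ERG cells had a peak at all 13 of those without one in vector cells. Of the 6 proteasome genes without a vector peak, ERG cells had a peak at 4 (66.7%). By that measure the 57.1% of the lysosomal genes was not above either set. The 12 members with a peak in ERG cells alone had 14 to 49 fragments at their strongest end peak (median 27.5, and 30 over all such genes). Members with a peak in both had 18 to 94 (median 41), below the 64 of all genes with a peak in both. The 2 ranges overlap, and GLA with 49, CTSZ with 41 and NPC1 and TFE3 with 37 fragments each lay within that of members with a peak in both. Of members with fewer than 30 ERG fragments, 4 of 11 had a vector peak, of those with 30 to 59 fragments 7 of 12, and of those with 60 or more 6 of 6. Over all genes these shares were 24.2%, 62.5% and 92.3%.

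**Figure D2:**
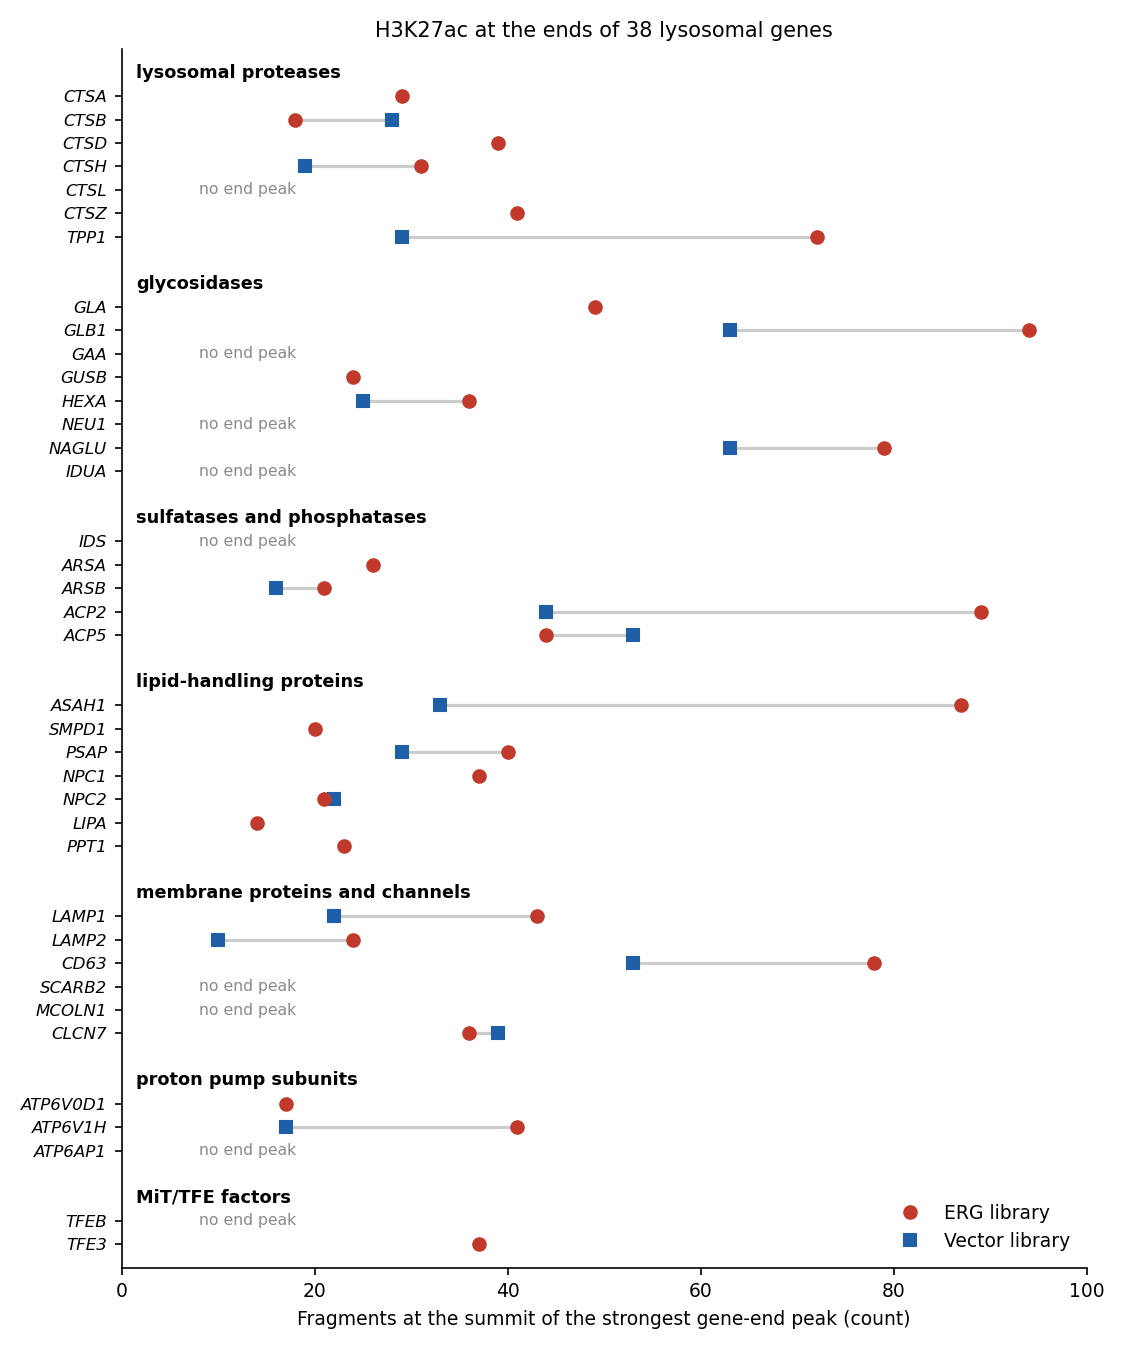
Fragments at the summit of the strongest peak within 1 kb of a gene end (horizontal axis, count) for each of the 38 lysosomal genes, by role, with a circle for ERG cells and a square for vector cells. Genes with a circle alone have a peak in ERG cells alone; 4 genes, CTSB, ACP5, NPC2 and CLCN7, have the square to the right of the circle, and the pair of TPP1 lies at the end shared with ILK and TAF10.

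Among the 7 proteases, 3 had an end peak in both libraries, 3 in ERG cells alone and 1 in neither. CTSB, a cysteine protease (chromosome 8, 11842524 to 11868087), had 18 fragments in ERG cells and 28 in vector cells, a ratio of 0.643 (0.335 to 1.2). It was the lowest ratio of any member, with a local background of 6.04 and 4.56 fragments. CTSH, a cysteine protease with aminopeptidase activity (chromosome 15, 78921058 to 78945046), had 31 and 19 fragments, a ratio of 1.63 (0.893 to 3.06). At TPP1, a tripeptidyl peptidase lost in a childhood neuronal storage disease (chromosome 11, 6612768 to 6619422), 72 and 29 fragments were found at the far end of the gene. That peak lies within 1 kb of ends of ILK and TAF10 and cannot be assigned to TPP1. At its own start TPP1 had 27 fragments in ERG cells and no vector peak.

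The proteases with a peak in ERG cells alone were CTSZ, CTSD and CTSA. CTSZ, a carboxypeptidase (chromosome 20, 58995185 to 59007254), had 41 fragments in a peak of 1061 bp across its start. CTSD had 39 fragments in a narrow peak of 347 bp, and CTSA had 29 in a peak of 997 bp. The CTSA peak also lies within 1 kb of ends of SPATA25 and NEURL2. CTSL, a cysteine protease (chromosome 9, 87726119 to 87731469), had no end peak in either library, and within 50 kb of its ends 15 bp were covered in ERG cells and 0 in vector cells.

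The 8 glycosidases held both the strongest and some of the emptiest promoters of the set. GLB1, beta-galactosidase (chromosome 3, 32961108 to 33097146), had the most fragments of any member in ERG cells, 94 against 63, a ratio of 1.49 (1.07 to 2.09). Its end also lies near TMPPE. NAGLU, which acts on heparan sulfate (chromosome 17, 42536241 to 42544449), had 79 and 63 fragments, a ratio of 1.25 (0.889 to 1.77). GLB1 and NAGLU thus shared the highest vector level of the set. HEXA, the alpha chain of beta-hexosaminidase (chromosome 15, 72340924 to 72376014), had 36 and 25 fragments, a ratio of 1.44 (0.841 to 2.5).

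GLA, alpha-galactosidase A (chromosome X, 101397803 to 101407925), had 2 peaks in ERG cells and none in vector cells. The upstream peak had 49 fragments and the downstream one 24, with summits 474 bp before and 307 bp after the start, and both are also within 1 kb of an end of HNRNPH2. GUSB, beta-glucuronidase (chromosome 7, 65960684 to 65982213), had 24 fragments in a wide ERG peak of 1277 bp and no vector peak. No end peak was found in either library at GAA, at NEU1, a neuraminidase, or at IDUA, an iduronidase. NEU1 (chromosome 6, 31857659 to 31862821) lies in the part of chromosome 6 of which hg38 holds alternative copies, and 207 ERG and 28 vector peaks were on such copies. Their part in the missing peak was not tested.

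Of the 5 sulfatases and phosphatases, 3 had a peak in both libraries. ACP2, a lysosomal acid phosphatase (chromosome 11, 47239302 to 47248814), had 89 and 44 fragments, a ratio of 2.02 (1.39 to 2.97), at an end near that of NR1H3. ACP5, tartrate-resistant acid phosphatase (chromosome 19, 11574660 to 11578975), had 44 fragments in ERG cells and 53 in vector cells, a ratio of 0.830 (0.544 to 1.26). Its local background was also higher in vector cells, 19.9 against 15.5 fragments, and the deposited fold was 2.59 there against 2.73 in ERG cells. ARSB, arylsulfatase B (chromosome 5, 78777209 to 78985958), was weak in both, with 21 and 16 fragments and a ratio of 1.31 (0.653 to 2.69). ARSA, arylsulfatase A, had 26 fragments in ERG cells alone, and IDS, iduronate-2-sulfatase, had no end peak.

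All 7 genes of lipid handling had an end peak in ERG cells, though that of LIPA cannot be assigned to it, and 3 of them had a vector peak. ASAH1, acid ceramidase (chromosome 8, 18055992 to 18084961), had 87 and 33 fragments, the highest ratio of the set at 2.64 (1.75 to 4.06). PSAP, the precursor of the saposins that present lipids to hydrolases (chromosome 10, 71816298 to 71851251), had 40 and 29 fragments, a ratio of 1.38 (0.834 to 2.31), and a second ERG peak of 31 fragments. NPC2, which passes cholesterol to NPC1 (chromosome 14, 74479935 to 74493512), had 21 and 22 fragments at the peak upstream of its start, a ratio of 0.955 (0.499 to 1.82). That peak is also near ISCA2. NPC2 had a second peak of 21 fragments downstream of the start in ERG cells alone.

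NPC1, the membrane cholesterol transporter (chromosome 18, 23506184 to 23586506), had 37 fragments in ERG cells over a low background of 3.95, a deposited fold of 7.68, and no vector peak. PPT1, a palmitoyl thioesterase, had 23 and SMPD1, acid sphingomyelinase, 20 fragments in ERG cells alone. LIPA, lysosomal acid lipase, had 14 fragments, the weakest end peak of the set in ERG cells. The record of LIPA spans 201 kb, and its start lies beside IFIT5, so this peak cannot be assigned to LIPA.

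The 6 membrane genes were divided between 4 with a peak in both libraries and 2 with none. CD63, a tetraspanin of late endosomes (chromosome 12, 55723535 to 55730041), had 78 and 53 fragments, a ratio of 1.47 (1.03 to 2.13), in the widest peaks of the set at 1656 and 1425 bp. LAMP1 (chromosome 13, 113297239 to 113323672) had 43 and 22 fragments, a ratio of 1.95 (1.14 to 3.43). LAMP2, its partner in the membrane (chromosome X, 120426148 to 120469349), had 24 and 10 fragments, a ratio of 2.4 (1.11 to 5.62), on the weakest vector peak of the set. CLCN7 (chromosome 16, 1444935 to 1475028) had 36 fragments in ERG cells and 39 in vector cells, a ratio of 0.923 (0.570 to 1.49). SCARB2, the receptor that carries glucocerebrosidase, and MCOLN1, a calcium channel, had no end peak, and MCOLN1 had no covered base within 50 kb of its ends in either library.

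Of the 3 proton pump genes, ATP6V1H, a subunit of the cytosolic sector (chromosome 8, 53715543 to 53843245), had 41 and 17 fragments, a ratio of 2.41 (1.34 to 4.53). ATP6V0D1 had 17 fragments in ERG cells alone, and ATP6AP1, an accessory subunit, had no end peak. ATP6AP1 (chromosome X, 154428677 to 154436516) did have an ERG peak of 45 fragments inside the gene, 2348 bp after its start. TFE3 (chromosome X, 49028726 to 49043357) had 37 fragments in ERG cells alone. TFEB (chromosome 6, 41683978 to 41736223) had no end peak, and a single peak of 10 fragments inside the gene in ERG cells.

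At the 17 genes with a shared end peak, the ERG to vector ratio was lower than at most genes. The median of the members was 1.47 (range 0.643 to 2.64), against 2.15 over all 6021 genes with a shared end peak (quartiles 1.81 and 2.56). It was near the depth ratio of 1.44. Each library is taken at its own summit, and the 2 summits of a shared peak can lie at different positions. At CTSB they were at 11867435 in ERG cells and 11867644 in vector cells, and at LAMP2 at 120469077 and 120468685. At ATP6V1H they were at 53843131 and 53842752, and at ASAH1, nearer to each other, at 18084267 and 18084284. TPP1, whose shared peak cannot be assigned to it, is among the 17. The shared peaks of GLB1, ACP2 and NPC2 also lie within 1 kb of an end of another coding gene. Of the 17, 7 lay more than 1.5 times below the all-gene median, where 7.81% of all genes did, and 0 lay more than 1.5 times above it, where 6.44% did. The 7 were CTSB, ACP5, CLCN7, NPC2, NAGLU, ARSB and PSAP. At 4 of them, CTSB, ACP5, CLCN7 and NPC2, ERG cells had fewer fragments than vector cells although their library was the deeper one, which held for 0.83% of all genes. The interval of all 4 included 1. The upper bound of the interval fell below 2.15 at CTSB, ACP5, CLCN7, NPC2, NAGLU, CD63 and GLB1, and the interval included 2.15 at the other 10.

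The counts of members above and below depend on the reference. Set against the depth ratio of 1.44 in place of the all-gene median, the median of the members was 1.02 times the reference. By 1.5 times, 4 members lay above it, where 49.2% of all genes did, and 4 below it, where 0.797% did. On the ratio of the deposited folds, which divide by the local background, the members' median was 0.905 times the all-gene median. There 4 members, CTSB, CLCN7, NPC2 and NAGLU, were below by 1.5 times, against 2.41% of all genes, and 0 were above, against 3.65%. ACP5 was then at 0.928, PSAP at 0.835 and ARSB at 0.783 times the all-gene median, so these were no longer below by 1.5 times. A shared peak needs a call in both libraries, which leaves out genes with few vector fragments. Of genes with an ERG end peak, 58.6% of members and 65.9% of all genes also had a vector peak. How far this requirement moves either median was not tested. Weak peaks had lower ratios over all genes too. For a sum of both summits under 60 fragments the all-gene median was 1.83 and that of 6 members 1.47. For 60 to 99 fragments these were 2.10 and 1.38 (5 members), and for 100 or more 2.29 and 1.76 (6 members).

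Among the other genes of the pathway, the 70 with a shared end peak had a median ratio of 2.17 (0.818 to 5.67), with differences between the lists. The median was 2.68 for 11 other hydrolases, above the upper quartile of all genes, and 2.30 for 18 other membrane and transport genes. It was 2.17 for 13 sorting genes, 2.03 for 17 mTORC1 control genes and 1.93 for 11 other V-ATPase genes. The difference between the lists was not tested. For the 12 members with a peak in ERG cells alone no ratio exists. From their own local background divided by 1.44, 9 to 19 fragments would have reached the lowest deposited −log10 p-value of the vector list, 3.98. Their ratios would by this estimate lie above 1.55 (ATP6V0D1) to 3.5 (GLA), and above 2.15 at 5 of 12, GLA, NPC1, TFE3, PPT1 and CTSZ, against 48.5% of all such genes.

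**Figure D3:**
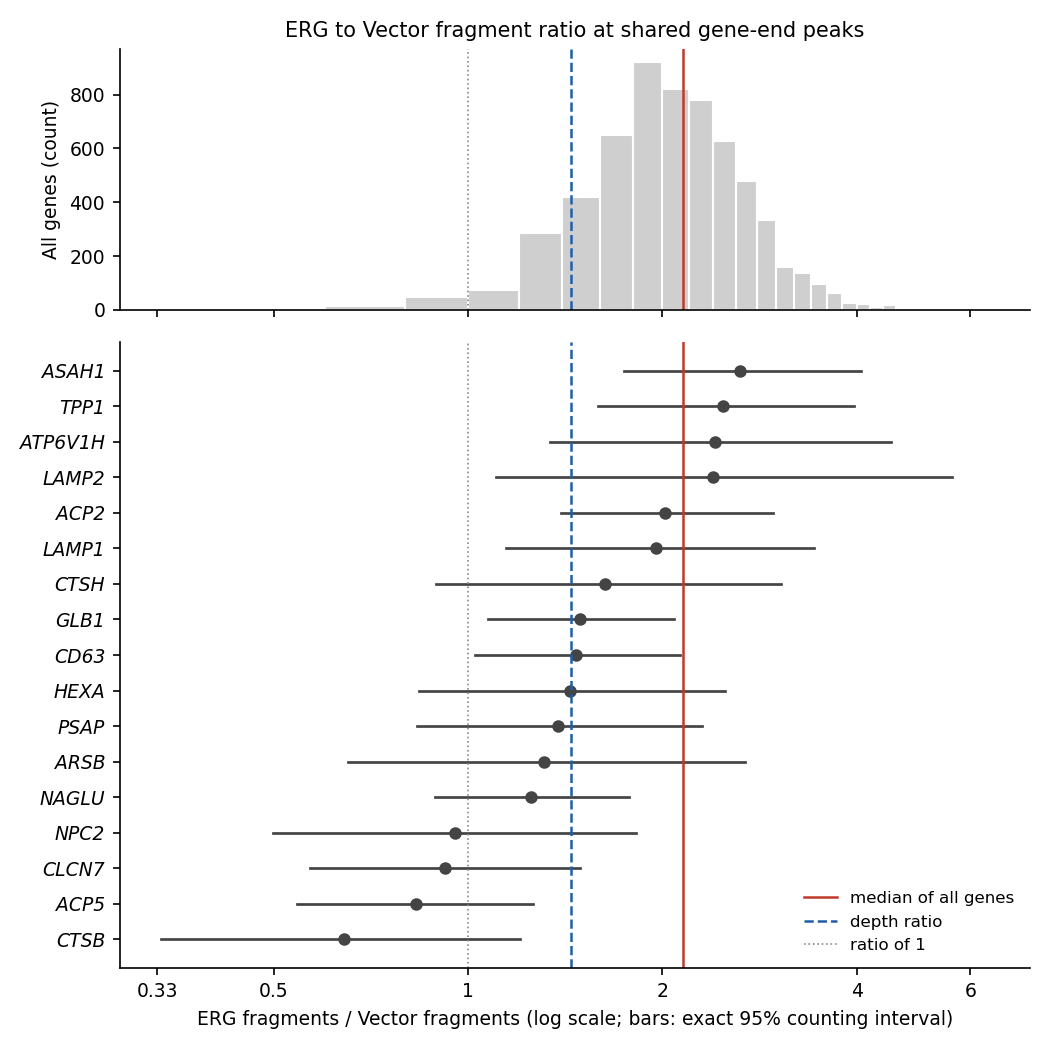
Upper panel, number of genes (vertical axis) by the ratio of ERG to vector fragments at shared gene-end peaks, for 6021 genes; lower panel, the same ratio for the 17 lysosomal genes with its exact 95% counting interval, both on a log axis. The solid line is the all-gene median of 2.15, the dashed line the depth ratio of 1.44 and the dotted line a ratio of 1; 13 of 17 genes lie left of the solid line.

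The ERG peaks were wider at nearly every shared end. Their median width was 1038 bp in ERG cells and 482 bp in vector cells, a median ratio of 2.04, against 1.58 over all genes. The ERG peak was the wider at 16 of 17 genes, NPC2 being the exception at 335 against 479 bp, and at 95.2% of all genes. NPC2 had a second ERG end peak of 499 bp. Within 1 kb of its ends 834 bp were covered in ERG cells and 479 bp in vector cells. LAMP1 had the largest ratio, with 1237 against 449 bp.

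Peaks at these genes sat at the start and not at the far end. Of the 24 ERG end peaks at members with an annotated start, 23 lay within 1 kb of that start, and of the 10 vector end peaks 9 did, the exception in both being the far end of TPP1. By the start alone, 9 of 30 members had a peak in both libraries (31.8% of all genes), 12 in ERG cells alone (15.7%) and 9 in neither (52.3%). Summits in ERG cells lay between 474 bp before and 563 bp after the start, at a median distance of 296 bp (276 bp over all genes), and 14 of 23 (60.9%) lay after it, against 69.1% of all start peaks. In vector cells 5 of 9 did (55.6% against 73.6%). GLA and NPC2 had a peak on each side of the start in ERG cells, with a gap over the start itself. Inside the genes, away from their ends, 14 ERG peaks lay in 10 of 38 lysosomal genes, against 16.7% of all genes with such a peak in ERG cells. In vector cells 3 peaks lay in 3 of 38, against 7.44% of all genes.

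The E-box matches lay under peaks at some genes and outside them at others. Of the 17 matches, 10 lay inside an ERG start peak, at LAMP1, CTSA and CLCN7, and 2 inside a vector peak, both at CLCN7. At LAMP1 the vector peak began after the last match, and the ERG peak reached over all 6. At CTSD and ATP6V0D1 the ERG peak began downstream of the match, and GAA, MCOLN1 and NEU1 had matches without a peak. Of members with a promoter, the flanked E-box was held by 2 of 10 with a peak in both libraries, 3 of 11 with a peak in ERG cells alone and 3 of 9 with none. The corresponding shares over all promoters were 6.90%, 5.21% and 3.33%.

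**Figure D4:**
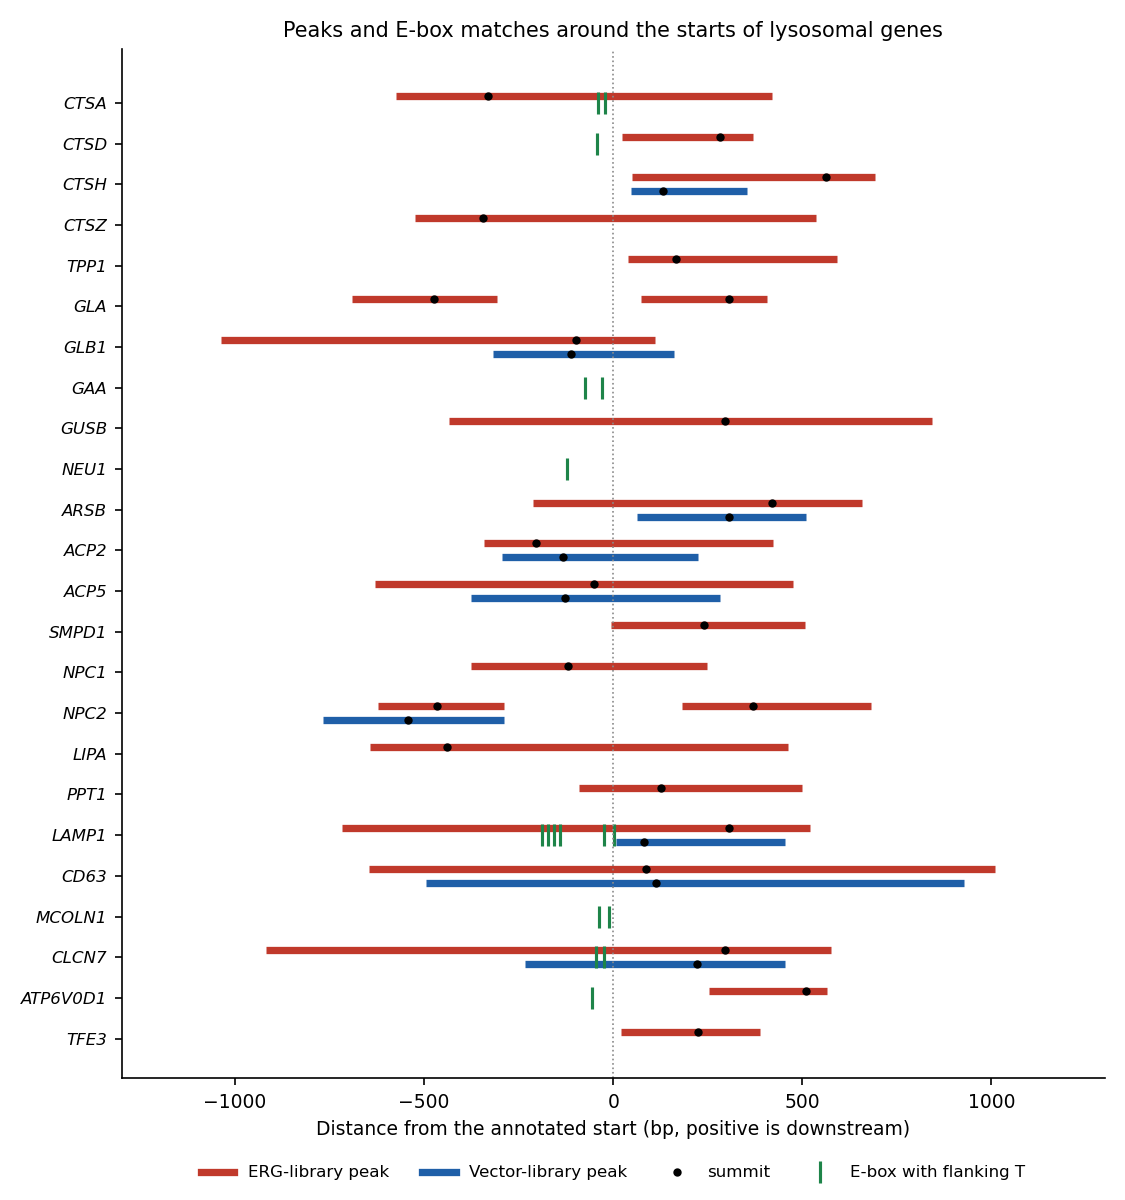
Peaks within 1 kb of the annotated start (horizontal axis, bp, positive is downstream) of the 24 lysosomal genes with such a peak or with a flanked E-box; upper bars are ERG peaks, lower bars vector peaks, dots their summits and ticks the E-box matches. The 6 matches of LAMP1 lie inside its ERG peak, and those of GAA, MCOLN1 and NEU1 lie where neither library had a peak.

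The other genes of the pathway were counted by class in the same way. Of 34 other hydrolases, 11 had a peak in both libraries and 5 in ERG cells alone, among them FUCA1, a fucosidase, and CTSO, a cysteine protease. Of 30 other membrane and transport genes, a peak was shared at 18 and present in ERG cells alone at 1, CLN3. Of 22 other V-ATPase genes the numbers were 11 and 3, the latter ATP6V1E2, ATP6AP2 and ATP6V1C1. In the sorting list a peak was shared at 13 of 26 genes and present in ERG cells alone at 8, including M6PR, a mannose 6-phosphate receptor, with 75 fragments and no vector peak, AP3B1 and AP5Z1. Among 27 genes of mTORC1 control at the lysosome, which sets whether TFEB and TFE3 enter the nucleus, 17 had a peak in both and 6 in ERG cells alone, including NPRL3 (49 fragments), LAMTOR3 and TBC1D7. MITF had 26 fragments in ERG cells alone and TFEC no end peak. In each of these lists 0 genes had a peak in vector cells alone. Together, 70 of 141 (49.6%) had a peak in both, against 30.2% of all genes, and 24 (17.0%) in ERG cells alone, against 15.6%.

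**Figure D5:**
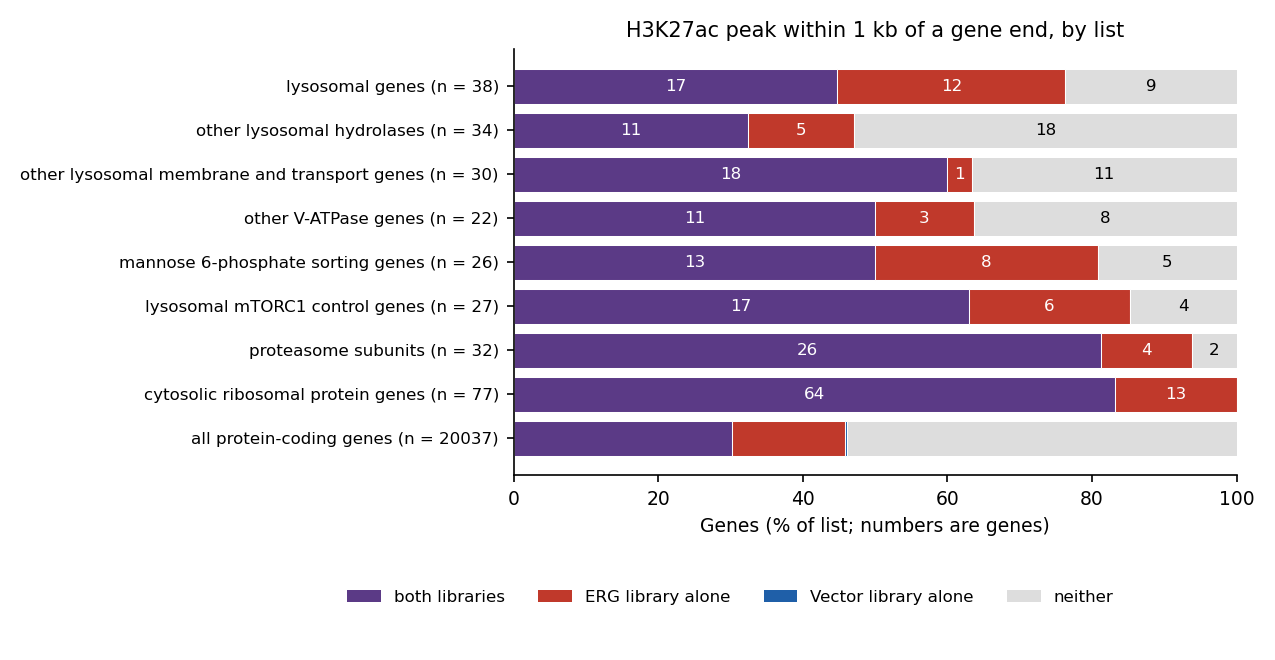
Share of genes (horizontal axis, % of the list) with an H3K27ac peak within 1 kb of a gene end in both libraries, in ERG cells alone, in vector cells alone or in neither, for the lysosomal genes, 5 lists of the pathway, 2 lists of widely expressed genes and all 20037 protein-coding genes; numbers in the bars are genes. The lysosomal genes hold 17, 12 and 9 in both, ERG alone and neither.

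Within 50 kb of the gene ends, peaks covered more sequence in ERG cells at 37 of 38 members, against 72.4% of all genes, and at 31 with a window of 10 kb, against 55.9%. At MCOLN1 both libraries covered 0 bp. The members' median was 1955 bp in ERG cells and 513 bp in vector cells, and the median difference (ERG minus vector) was 1466 bp, against 776 bp over all genes. This length takes in peaks of neighbouring genes. The largest values of members were at ATP6AP1 (7269 against 1982 bp), CLCN7 (6701 against 3224 bp) and ACP5 (6005 against 2115 bp), and ATP6AP1 had no peak at its own ends. TFEB had 2706 against 0 bp and GAA 1374 against 0 bp in that window, again with no peak at their ends. NEU1, IDUA and IDS, the other enzymes without an end peak beside CTSL, had 945, 708 and 828 bp in ERG cells and 0 bp in vector cells. SCARB2 had 692 and 472 bp, so it was covered nearby in both.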

How the data were processed

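H3K27ac was measured by chromatin immunoprecipitation and sequencing in 2 libraries of F36P cells, after fixing with 1% formaldehyde and cutting with micrococcal nuclease, with 10 µg of chromatin in each pull-down (per the labels' protocols). Bowtie2, MACS2 and deepTools, with hg38, are listed in the submitters' processing notes. Their settings and any use of an input library are not given in the sources used here. Peaks of each library stand in a list of their own, deposited by the authors and not pooled. Its values are the authors' own: a fold over the local background, a −log10 p-value, a −log10 q-value (lowest 1.31 and 1.32) and a score, which equals the −log10 q-value times 10, without decimals, except at 9 and 1 peaks. The deposited summit offset gives the position of each summit.

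Fragments at the summit (n) and background were recovered from the deposited fold, read as n plus 1 over background plus 1, and the −log10 p-value, read as a Poisson tail, which gave whole n for 99.9% of peaks of each list within a relative error of 0.0001. Per-library depth is known only through the background ratio of 1.44. Genes and promoters are from RefSeq GRCh38.p14, which gives no exons, so whether a peak is exonic or intronic is not reported. Peaks were matched to genes within 1 kb of either end of the record, and to each other by an overlap of 1 bp. Genes with several shared peaks are represented by the pair with most fragments. Of 204 names in the other lists, 1 did not match the table. Python 3.11.15, pandas 2.3.3 and scipy 1.17.1 were used.

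The members and lists were chosen with earlier results of these data known. All members are described; the rule for full values took members with a peak in 1 library alone or none, the 5 highest and lowest ratios and the 5 strongest peaks, and CTSH, HEXA, ARSB, PSAP and LAMP1 were given in full outside it so that every ratio is shown. In the other lists, up to 3 genes with a peak in 1 library alone were named, by covered length; 1 gene that this rule names is not reported here. The counts of ratios under 1, the split by strength and the estimate for genes with a peak in ERG cells alone were added after the values were seen.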

Additional observations from a re-analysis of the deposited data

How the results depend on the processing

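The counts depend on how many weak peaks each list holds. With the ERG list limited to the 9161 peaks of the vector list, an end peak was shared at 9 of 38 lysosomal genes. It was found at 4 in ERG cells alone, 8 in vector cells alone and 17 in neither. Over all genes, 26.9% were then in both, 6.15% in ERG cells alone, 3.66% in vector cells alone and 63.3% in neither. The other pathway lists had 13 genes in ERG cells alone under that setting. Among the best-scored 50% of either list, the numbers for the lysosomal genes were 6 in both (18.2% of all genes), 8 in ERG cells alone (16.2%), 4 in vector cells alone (0.404%) and 20 in neither (65.2%). With the annotated start alone, 9 of 30 genes had a peak in both. A −log10 q-value of at least 5, and ERG fragments scaled down by the depth ratio, each left 1 gene, CTSB, in vector cells alone (0.230% and 0.414% of all genes). Windows of 2.5 kb and 500 bp moved no count by more than 1.5 times, with 13 and 16 genes in ERG cells alone. With the deposited fold 4 members, CTSB, CLCN7, NPC2 and NAGLU, had a ratio more than 1.5 times below the all-gene median, against 2.41% of all genes. With the depth ratio as reference the members' median was 1.02 times it. By 1.5 times, 4 members were above (49.2% of all genes) and 4 below (0.797%). The median difference in covered length was 623 bp with a window of 10 kb. No paired analysis was possible because each group holds 1 library, and leaving out a replicate was not possible for the same reason.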

Other observations

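Inside the genes, away from their ends, CTSH and ASAH1 each had a peak in both libraries. The CTSH peak had 79 fragments in ERG cells and 27 in vector cells, a ratio of 2.93 (1.87 to 4.71), whereas the peak at the end of CTSH had 31 and 19. The peak inside ASAH1 had 58 and 21 fragments, a ratio of 2.76 (1.65 to 4.79). In ATP6V1H an ERG peak of 27 fragments (53730833 to 53731213) and a vector peak of 24 fragments (53731709 to 53732117) lay beside each other without overlap. The other ERG peaks inside genes, at CTSB, CTSD, CTSH, GLB1, ASAH1, LIPA, LAMP2, ATP6AP1 and TFEB, overlapped no vector peak. The one inside LIPA lies within 1 kb of an end of IFIT3.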
